A study of Homo sapiens with 4 samples.

Results

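The cytosolic ribosomal proteins and their paralogs were examined as a family of 83 genes among the 22637 genes of the deposited table. They were chosen by symbol alone: genes named RPL or RPS with a number, and RPLP0, RPLP1, RPLP2 and RPSA. The rule reads no measured value. Of the 83 genes, 77 encode core ribosomal proteins, 46 of the large and 31 of the small subunit, and 6 are paralogs, namely RPS27L, RPL22L1, RPL26L1, RPL7L1, RPL10L and RPL3L. A further paralog that was looked for, RPL39L, was not analysed here.

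The RNA came from 4 human prostate cancer cell lines with 1 stranded mRNA library each. LNCaP is an androgen-responsive line. C4-2B descends from it and is castration-resistant. LN-OlapR and 2B-OlapR were derived from LNCaP and C4-2B, respectively, by prolonged culture in rising concentrations of the PARP inhibitor olaparib, and the labels call them resistant. The resistant lines were maintained in medium with olaparib, whereas all 4 cultures are labelled untreated and the deposited design states that the plated cells had no selection agent. Selection and earlier exposure to the drug therefore cannot be told apart. Each resistant line is 1 selected derivative, and with 1 library per line no test between lines was made. LN-OlapR against LNCaP is called the LN pair, and 2B-OlapR against C4-2B the 2B pair. C4-2B against LNCaP, the parental lines, uses a library of each pair and is not independent of either. Levels are normalized CPM, the counts of a gene per 1000000 counts of its library, with the library total first scaled by a normalization factor (TMM). Differences are log2 ratios of normalized counts, positive where the first-named line was higher. The 95% intervals of ratios, levels and shares cover counting error only, and those of medians cover the spread between genes. Genes of the same libraries are not independent replicates, and none of the intervals covers the spread between cultures.

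A cytosolic ribosome holds, as a rule, 1 copy of each core protein around its rRNA, and cells keep the mRNAs of these proteins at coordinated levels. Most of these mRNAs start with a cytosine followed by a run of pyrimidines, the terminal oligopyrimidine (TOP) motif, through which mTORC1 and the RNA-binding protein LARP1 control their translation. Some core proteins have a paralog that can take their place in the ribosome or that has work outside it. Proteins left unassembled, among them RPL5 and RPL11, bind the ubiquitin ligase MDM2 and so link ribosome assembly to the control of the cell cycle.

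The 30 bases around the RefSeq start of a gene (GRCh38.p14, 15 bases on either side) are given on the coding strand. Paralog and partner pairs come first, followed by some core genes that stand out below. Capitals mark a run of at least 5 bases of C or T that begins with a C at the annotated first base, read on the coding strand only. All core genes printed were chosen with such a run. RPL6, RPL9, RPL17, RPS26 and RPS29 also stand out below, hold no run at their listed starts and are not printed. RPS27 is at chr1:153990747-153990776 on the plus strand, RPS27L at chr15:63157463-63157492 on the minus strand, RPL22 at chr1:6199581-6199610 on the minus strand and RPL22L1 at chr3:170870181-170870210 on the minus strand. RPL26 is at chr17:8383179-8383208 on the minus strand, RPL26L1 at chr5:172958714-172958743 on the plus strand, and RPL7L1 at chr6:42879601-42879630 on the plus strand. RPL10 is at chrX:154398362-154398391 on the plus strand and RPL10L at chr14:46651767-46651796 on the minus strand. RPL10 has further starts in the same table without a run, and RPL26L1 has 1 further start, also without one. RPL35A is at chr3:197950175-197950204 on the plus strand, RPL39 at chrX:119791616-119791645 on the minus strand, RPS10 at chr6:34426055-34426084 on the minus strand and RPL21 at chr13:27251543-27251572 on the plus strand. The run of RPL39 goes on beyond its window.
RPS27: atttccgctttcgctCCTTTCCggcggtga
RPS27L: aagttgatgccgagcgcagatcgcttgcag
RPL22: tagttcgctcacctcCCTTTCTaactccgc
RPL22L1: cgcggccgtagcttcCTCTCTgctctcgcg
RPL26: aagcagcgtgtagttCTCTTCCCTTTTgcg
RPL26L1: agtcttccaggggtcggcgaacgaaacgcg
RPL7L1: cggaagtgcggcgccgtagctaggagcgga
RPL10: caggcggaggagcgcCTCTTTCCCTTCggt
RPL10L: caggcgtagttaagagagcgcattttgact
RPL35A: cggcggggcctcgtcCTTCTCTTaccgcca
RPL39: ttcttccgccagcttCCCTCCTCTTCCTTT
RPS10: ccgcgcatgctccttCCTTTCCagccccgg
RPL21: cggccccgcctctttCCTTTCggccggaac

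Counted over genes with a start in the table, such a run began at a RefSeq start in 46 of 62 core genes (74.2%), but in 1 of 5 paralogs, RPL22L1. It was found in 5.14% of all 27305 genes of the table. Outside the family, the run was found in 8 of 9 other listed genes of the TOP class, which is itself defined by such a start. It was found in 6 of 69 mitochondrial ribosomal protein genes, whose products make a separate ribosome. It was found in 3 of 21 ribosome assembly factors. Where the run was allowed to begin within 3 bases of the annotated start, 52 of the 62 core genes (83.9%) and 16.0% of all genes held it. These counts describe letters at annotated starts, and the starts used in these cells were not measured.

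All 77 core genes were well covered, with at least 664 counts in every library, and libraries held between 19950537 and 26394267 counts. All 11 luminal prostate markers that were listed exceeded 1 CPM in every library, with summed levels from 4182 to 7662 CPM. KLK3, the gene of prostate-specific antigen, was at 53.1 CPM in LNCaP and between 1870.1 and 2685 CPM in the other lines. Of the markers of other cell types, the basal marker KRT14, the 1 of 3 that was listed, reached 0.557 CPM, the neuroendocrine marker SYP, again 1 of 3, reached 3.13 CPM, and 2 of 5 fibroblast markers summed to at most 16.3 CPM, nearly all of it COL1A1. None of the 4 leukocyte markers was listed. The part of these markers in the ribosomal protein results was not tested.

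The core mRNAs made up 5.77% of all counts in LNCaP (95% Wilson interval 5.76 to 5.78), 5.98% in LN-OlapR (5.97 to 5.99), 6.19% in C4-2B (6.18 to 6.20) and 6.35% in 2B-OlapR (6.34 to 6.37). The share was higher in each resistant line than in its parent and higher in both C4-2B libraries than in both LNCaP libraries. The large subunit genes took 3.48%, 3.61%, 3.77% and 3.78% and the small subunit genes 2.28%, 2.37%, 2.42% and 2.57% in the same order. Paralogs took between 0.074% and 0.089% of the counts. The share of genes of mitochondrial DNA was 10.1%, 10.3%, 6.50% and 5.69%, so it moved opposite to the core share between backgrounds. Of the counts outside mitochondrial DNA, the core genes took 6.42% in LNCaP against 6.66% in LN-OlapR, and 6.62% in C4-2B against 6.74% in 2B-OlapR, so the order within each pair held and LN-OlapR lay above C4-2B. A share is a share of the RNA of a culture, and the number of cells and the RNA per cell cannot be told apart from it.

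Between core genes, levels were compared per kilobase of the median coding transcript. The median core gene was at 924 CPM per kb in LNCaP against 1058 in LN-OlapR, and 1046 in C4-2B against 1130.1 in 2B-OlapR. The highest mean levels over the 4 libraries were those of RPS2, a small subunit protein near the mRNA entry site, at 3951 CPM per kb, the stalk protein RPLP1 at 2569.8, RPL13 at 2331, RPL8 at 2313 and RPL37A at 2167. The lowest were those of RPL9 at 56.6, RPS28 at 71.0, RPL36A at 76.5, RPL21 at 94.2 and RPS26 at 173. These levels depend on the length used. Per kilobase of the longest coding transcript RPS2 was at 3268 and RPL9 at 17.3, still the highest and the lowest, but RPLP1 was at 955, RPL13 at 369 and RPL37A at 314. The ratio of the 90th to the 10th percentile lay between 5.06 and 6.30 in the 4 libraries. The plot of levels by gene shows that most core genes lay in a band in which the 4 libraries nearly overlay each other, followed by a steep tail.

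**Figure D1:**
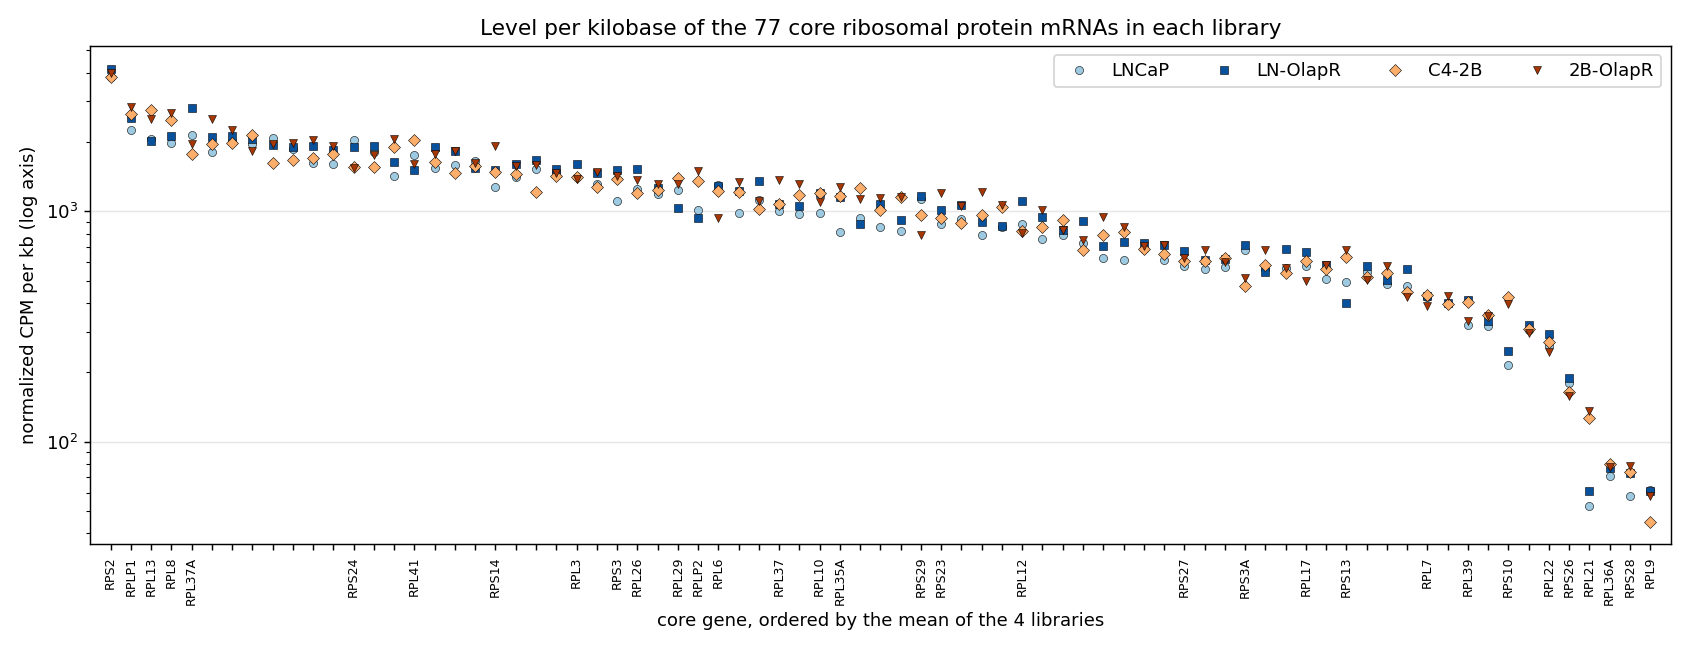
Level of each of the 77 core genes in each of the 4 libraries, in normalized CPM per kb of the median coding transcript on a log axis, with genes ordered by the mean of the 4 libraries and some of those named in the text labelled. RPS2 lies at the top at 3951 CPM per kb on average and RPL9 at the bottom at 56.6, and the libraries of RPL21 split into a lower pair (LNCaP and LN-OlapR) and a higher pair (C4-2B and 2B-OlapR).

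The tail coincided in part with counts assigned to processed pseudogenes. Ribosomal protein genes have many such intronless copies, and reads that fit both a gene and a copy can be split between them. Of the 77 core genes, 68 had a named pseudogene in the table. The pseudogenes held under 5% of the counts of gene and pseudogenes together for 43 core genes and over 20% for 22. They held over 50% for 6, among them RPL21 (85.3%), RPL36A (83.0%), RPL23A (82.0%), RPL7 (65.1%) and RPL13A (55.4%). RPL36A was at 49.2, 53.2, 55.4 and 53.7 CPM in LNCaP, LN-OlapR, C4-2B and 2B-OlapR, while its pseudogene RPL36AP37 was listed with 7151, 6688, 4283 and 4575 counts. The levels of these 6 genes are therefore uncertain. The same caution applies to genes just under that share, among them RPS28 (47.5%), RPS3A (47.1%) and RPL6 (46.6%). Except for RPL7L1 with 2, the paralogs had no named pseudogene.

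In the LN pair, the core mRNAs were higher in LN-OlapR by a small and widely shared margin. The median log2 ratio of the 77 core genes was 0.16 (95% interval over genes 0.09 to 0.19), against -0.00 over all 15373 genes analysed. The ratio was above 0 for 65 core genes (84.4%), against 49.6% of all genes. With scaling by total counts the median was 0.078 and the ratio was above 0 for 49 core genes (63.6%), against 40.5% of all genes. The counting interval lay above 0 for 62 core genes and below 0 for 10, against 31.7% and 31.3% of all genes. The core genes are among the most abundant and have narrower intervals, so these shares are not directly comparable. The median was 0.12 for the large subunit (38 of 46 above 0) and 0.19 for the small subunit (27 of 31 above 0). At 1.5-fold, 0 core genes were higher and 0 lower, against 10.6% and 10.8% of all genes.

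The 5 core genes that led in the LN pair were RPL35A, RPS3, RPL37A, RPL12 and RPL39, the last of which is described further on with both pairs. RPL35A, a large subunit protein whose gene is mutated in some families with Diamond-Blackfan anemia, was at 728 CPM in LNCaP against 1026 in LN-OlapR, and 1039 in C4-2B against 1137 in 2B-OlapR. LNCaP was thus the low library of the 4, and the log2 ratio of the LN pair was 0.50 (0.47 to 0.52). RPS3, a small subunit protein at the mRNA entry site that also acts as a DNA repair endonuclease, was at 1002, 1359, 1252 and 1283 CPM in the same order, again with LNCaP the lowest. Its ratio was 0.44 (0.42 to 0.46). RPL37A was at 1133 CPM in LNCaP and 1479.9 in LN-OlapR, with a ratio of 0.38 (0.36 to 0.41). RPL12, a protein at the base of the stalk, was at 498 and 630.0 CPM, with a ratio of 0.34 (0.31 to 0.37).

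At the other end, RPS13, an early-binding small subunit protein, was at 241 CPM in LNCaP against 197 in LN-OlapR, and 310.0 in C4-2B against 333 in 2B-OlapR. LN-OlapR was the low library of the 4, with a ratio of -0.29 (-0.35 to -0.24), and it was the core gene lowest against its parent in the LN pair. RPL29 was at 885 and 746 CPM in the LN pair (-0.25, -0.27 to -0.22), and RPL41, which encodes a very short basic peptide of the large subunit, was at 1025 and 879 CPM (-0.22, -0.25 to -0.20). RPLP2 and RPS24 followed with a ratio of -0.11 each.

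In the 2B pair the shift was smaller and less uniform. The median log2 ratio was 0.10 (0.04 to 0.12), against -0.00 over 15527 genes, and with scaling by total counts it was 0.057. The ratio was above 0 for 52 of 77 core genes (67.5%), against 50.0% of all genes. With scaling by total counts it was above 0 for 46 core genes (59.7%), against 46.1% of all genes. The counting interval lay above 0 for 50 and below 0 for 19, against 31.5% and 30.8% of all genes, again with narrower intervals for the core genes. The median was 0.09 (-0.04 to 0.13) for the large subunit, with 28 of 46 genes above 0, and 0.11 (0.04 to 0.15) for the small subunit, with 24 of 31. At 1.5-fold, 0 core genes were higher and 0 lower, against 10.7% and 13.5% of all genes.

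Among the highest core genes in the 2B pair was RPS14, a small subunit protein. The gene, which is encoded in the region deleted in 5q- syndrome, was at 792 CPM in LNCaP against 937 in LN-OlapR, and 914 in C4-2B against 1193 in 2B-OlapR, so 2B-OlapR was the highest library (0.38, 0.36 to 0.41). RPS23, a protein of the decoding center, followed at 818, 936, 869 and 1114 CPM (0.36, 0.33 to 0.39), and RPL37 at 639, 686, 684 and 874 CPM (0.35, 0.32 to 0.39). RPL9, at 44.6, 44.2, 32.4 and 41.9 CPM, had a ratio of 0.37 (0.22 to 0.51), with C4-2B the low library.

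RPL6, a large subunit protein, was the lowest core gene in the 2B pair. It was at 855 CPM in LNCaP against 841 in LN-OlapR, and 807 in C4-2B against 616 in 2B-OlapR, so 2B-OlapR was the low library, with a ratio of -0.39 (-0.42 to -0.36). Its pseudogenes had a median ratio of -0.46 in the 2B pair, with 0 of 5 above 0, and with their counts added to RPL6 the ratio was -0.43. RPL41 was at 1191 CPM in C4-2B against 938 in 2B-OlapR (-0.34, -0.37 to -0.32). RPS29, at 559 and 458 CPM (-0.29, -0.33 to -0.25), and RPL17, at 428 and 352 CPM (-0.28, -0.33 to -0.24), were also among the 5 lowest, with RPL39 between them. RPL17 overlaps the readthrough gene RPL17-C18orf32, which was listed with far fewer counts, 498, 457, 168 and 211.

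The plot of log2 ratios by subunit places the core genes in a narrow band beside the paralogs. Of the core genes, 20.8% differed by at least 1.2-fold in either direction in the LN pair, against 50.4% of all genes analysed. The same share was 18.2% against 54.8% in the 2B pair and 33.8% against 62.7% between the parental lines. Core genes are among the most abundant in the table, so their ratios carry less counting error than those of most genes. How much of the narrower spread goes with abundance was not tested.

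**Figure D2:**
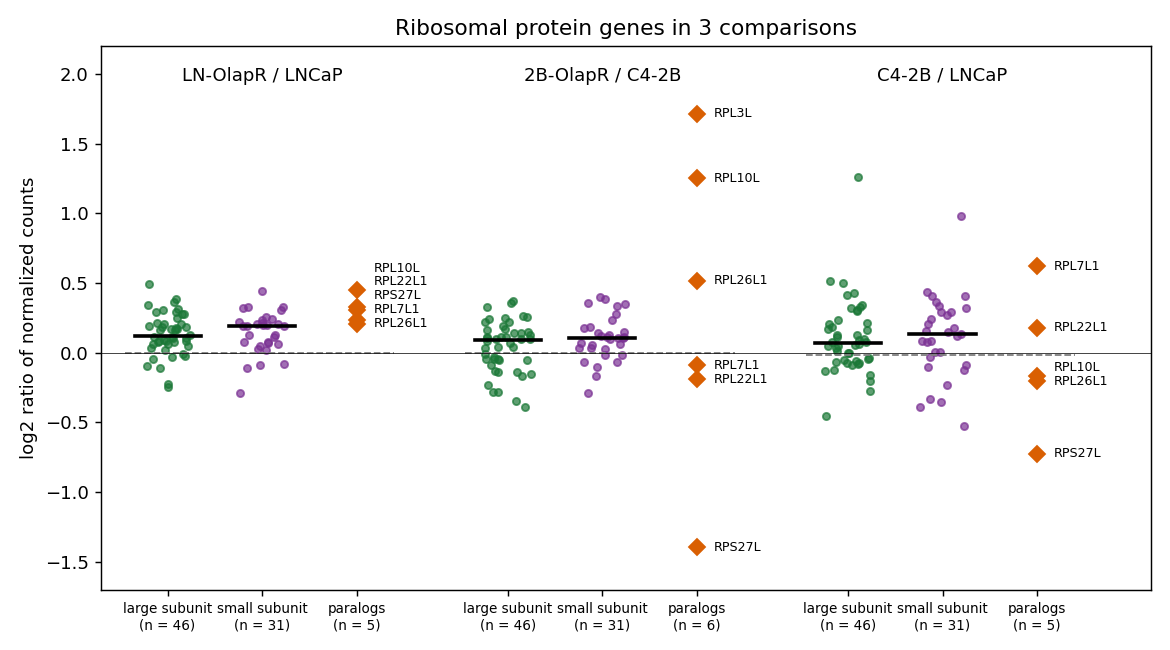
Log2 ratio of normalized counts of each core gene of the large and small subunit (dots, with black bars at the medians) and of each paralog (orange diamonds) in the 3 comparisons, with a dashed line at the median of all genes. Core genes of both resistant pairs lie between -0.39 and 0.50, whereas RPS27L, RPL10L and RPL3L of the 2B pair lie at -1.39, 1.25 and 1.71.

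Both pairs were then set side by side. Of the 77 core genes, 46 were higher in both resistant lines (28.5% of the 14602 genes analysed in both pairs were), and 6 were lower in both (29.1% of all genes). A further 19 were higher in LN-OlapR only and 6 in 2B-OlapR only, against 21.2% of all genes in each case. At 1.2-fold, 0 core genes were higher in both pairs and 0 lower in both, against 8.65% and 10.3% of all genes. The Spearman correlation of the LN and 2B ratios was 0.226 over the 77 core genes and 0.196 over the 14602 genes, given as a description, since genes of 1 library share its depth and scaling.

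**Figure D3:**
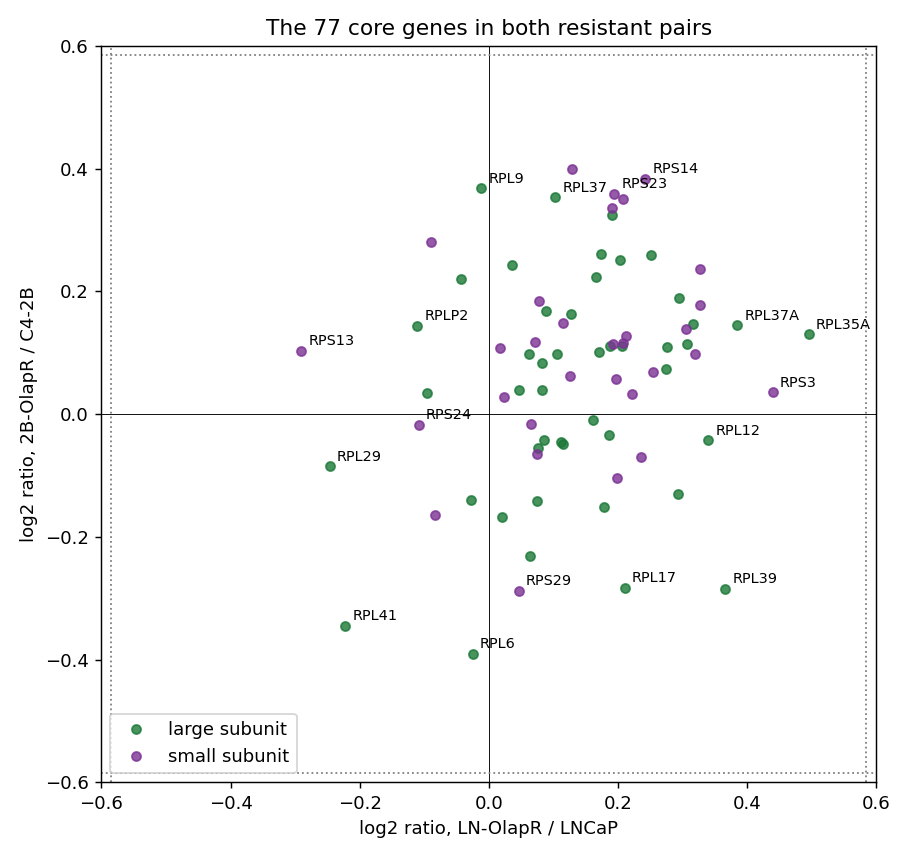
Log2 ratio of each of the 77 core genes in the LN pair (horizontal axis) and the 2B pair (vertical axis), with dotted lines at a 1.5-fold difference and some of the genes named in the text labelled. The upper right quadrant holds 46 genes, no gene reaches a dotted line, and RPL39 lies apart at the lower right at 0.37 and -0.28.

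RPL39 was the single core gene that differed by 1.2-fold in opposite directions. It encodes a small protein that lines the exit tunnel of the large subunit. RPL39 was at 128 CPM in LNCaP against 166 in LN-OlapR, and 163 in C4-2B against 134 in 2B-OlapR, so LN-OlapR and C4-2B were close to each other and high, and the others were close to each other and low. The ratio was 0.37 (0.30 to 0.43) in the LN pair and -0.28 (-0.36 to -0.21) in the 2B pair. RPL41, in contrast, lay below its parent in both pairs.

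The paralogs were spread within the range of the core genes in the LN pair and beyond it in the 2B pair. In the LN pair the 5 paralogs analysed were higher in LN-OlapR, with ratios from 0.21 to 0.45. In the 2B pair the same genes had ratios from -1.39 to 1.25, with RPS27L lower and RPL10L higher by at least 1.5-fold, against 13.5% and 10.7% of all genes. In the LN pair 0 paralogs differed by 1.5-fold, against 10.6% higher and 10.8% lower of all genes. RPL3L averaged 1 CPM in the 2B pair alone, which it reached only through the 2B-OlapR library, so its ratio is given apart and not counted.

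RPS27L, on the minus strand of chromosome 15 from 63125872 to 63158021 (GENCODE release 29 on GRCh38, as for all genes placed here), encodes a protein close to the small subunit protein RPS27. It was at 99.8 CPM in LNCaP against 123 in LN-OlapR, and 60.4 in C4-2B against 23.0 in 2B-OlapR, from 2682, 2875, 1236 and 476 counts. The 2B-OlapR library was the lowest and LN-OlapR the highest. The ratio was 0.30 (0.23 to 0.38) in the LN pair, -1.39 (-1.55 to -1.24) in the 2B pair, a 2.63-fold lower level, and -0.72 (-0.82 to -0.63) between the parental lines, 1.65-fold lower in C4-2B. RPS27 itself was at 208, 242, 219 and 224 CPM, a far narrower range. Per kilobase, RPS27L thus made up 17.6% of the pair RPS27L and RPS27 in LNCaP against 18.4% in LN-OlapR. It made up 10.9% in C4-2B against 4.35% in 2B-OlapR. Such shares, here and for the paralogs below, depend on the transcript length used. The mean level of RPS27L was 94.8 CPM per kb by the median coding transcript and 11.9 by the longest, while RPS27 was at 622 by either.

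Genes of the link between ribosome assembly and the cell cycle were read from the same libraries. CDKN1A, which encodes a cell cycle inhibitor, was at 76.1 CPM in LNCaP against 142 in LN-OlapR, and 77.8 in C4-2B against 18.6 in 2B-OlapR. Its ratio was 0.90 (0.82 to 0.98) in the LN pair and -2.06 (-2.22 to -1.90) in the 2B pair. MDM2 was at 131, 149, 88.8 and 47.2 CPM, with ratios of 0.19 (0.13 to 0.26) and -0.91 (-1.02 to -0.80). For RPS27L, CDKN1A and MDM2 alike, LN-OlapR was the highest library and 2B-OlapR the lowest. MDM4, the relative and partner of MDM2, had ratios of 0.42 and -0.12. The 2 core proteins named above as binding MDM2 varied less. RPL5 was at 515, 557, 561 and 542 CPM, with ratios of 0.12 and -0.05, and RPL11 at 500.0, 605, 476 and 501 CPM, with ratios of 0.27 and 0.07. Whether the ratios of these genes share a source was not tested.

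RPL22L1, on the minus strand of chromosome 3 from 170864875 to 170870483, can replace RPL22 in the large subunit. It was at 317 CPM in LNCaP against 398 in LN-OlapR, and 359 in C4-2B against 315 in 2B-OlapR. RPL22 was at 180.3, 204, 189 and 169.8 CPM, with the libraries in the same order from high to low. The ratios of RPL22L1 and RPL22 were 0.33 and 0.18 in the LN pair and -0.19 and -0.15 in the 2B pair. Per kilobase the paralog exceeded its partner in every library, at 69.1%, 71.2%, 70.7% and 70.2% of the pair. RPL22L1 was the one paralog whose RefSeq start held a pyrimidine run.

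RPL26L1, a near copy of RPL26 encoded on chromosome 5 from 172958729 to 172969771, was at 42.3 CPM in LNCaP against 48.9 in LN-OlapR, and 36.7 in C4-2B against 52.5 in 2B-OlapR. Both resistant lines lay above both parents, with ratios of 0.21 (0.09 to 0.33) in the LN pair and 0.52 (0.38 to 0.65) in the 2B pair. RPL26, at 704, 864, 679 and 775 CPM, had ratios of 0.29 and 0.19, so it too was higher in both. The paralog made up 4.70%, 4.44%, 4.25% and 5.27% of the pair per kilobase.

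RPL7L1, on chromosome 6 from 42879618 to 42889925, encodes a protein related to RPL7 that takes part in ribosome assembly. It was at 262 CPM in LNCaP against 308 in LN-OlapR, and 403 in C4-2B against 379 in 2B-OlapR, so the C4-2B libraries were the higher ones. The ratio between the parental lines was 0.62 (0.57 to 0.67), 1.54-fold, while it was 0.23 in the LN pair and -0.09 in the 2B pair. RPL7 was at 395, 401, 405 and 360.2 CPM, and its named pseudogenes held more counts than the gene.

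RPL10L and RPL3L are known from testis and from muscle, respectively, and were low in all 4 lines. RPL10L, on chromosome 14 from 46651010 to 46651821, was at 4.61 CPM in LNCaP against 6.30 in LN-OlapR, and 4.11 in C4-2B against 9.80 in 2B-OlapR, from 124, 147, 84 and 203 counts. Its ratio was 0.45 (0.11 to 0.79) in the LN pair and 1.25 (0.88 to 1.62), or 2.38-fold, in the 2B pair. RPL10L derives from RPL10 by retrotransposition, so reads that fit both could be split and its level is uncertain. RPL10 was at 699, 856, 859.9 and 785 CPM, with a 2B ratio of -0.13, and its part in the counts of RPL10L was not tested. RPL3L, on chromosome 16 from 1943974 to 1957606, had 30, 18, 15 and 51 counts, and its 2B ratio of 1.71 (0.90 to 2.53), or 3.28-fold, has a correspondingly wide interval. RPL3 was at 1698, 1932, 1696 and 1657 CPM, and RPL3L made up between 0.035% and 0.130% of the pair per kilobase. The plot of paralogs and partners shows these levels.

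**Figure D4:**
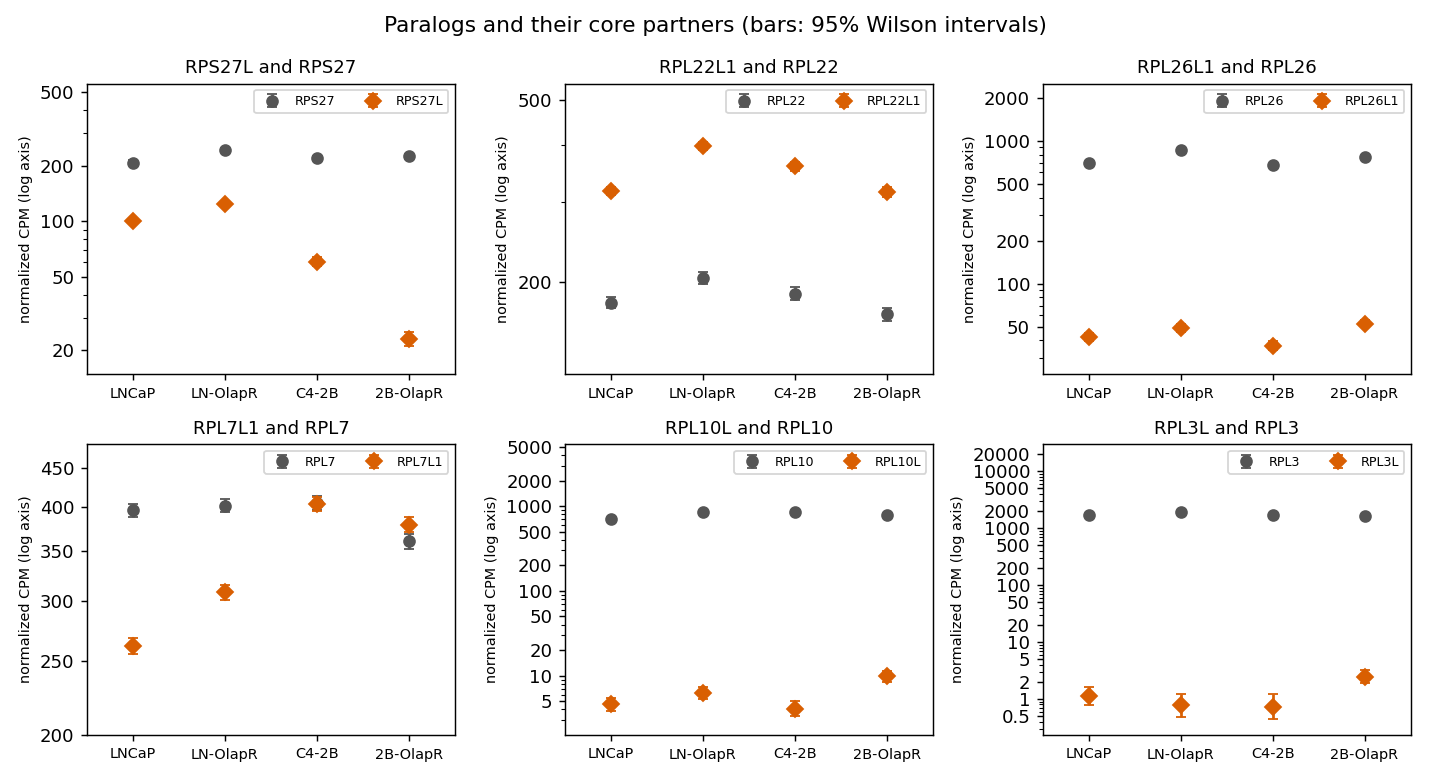
Normalized CPM of each paralog (orange diamonds) and its core partner (gray circles) in the 4 libraries on log axes, with 95% Wilson intervals. RPS27L lies at 23.0 CPM in 2B-OlapR while RPS27 lies between 208 and 242, and RPL22L1 lies above RPL22 in every library.

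Between the parental lines, the core genes were on balance slightly higher in C4-2B, and RPL21 and RPS10 stood apart. The median log2 ratio of C4-2B against LNCaP was 0.09 (0.03 to 0.16), against -0.02 over 15580 genes, and 51 of 77 core genes were above 0, against 48.6% of all genes. At 1.5-fold 2 core genes were higher and 0 lower, against 16.1% and 16.1% of all genes. The 2 were RPL21 and RPS10.

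RPL21, a large subunit protein gene on chromosome 13 from 27251309 to 27256691, was at 33.8 CPM in LNCaP against 39.0 in LN-OlapR, and 81.1 in C4-2B against 87.6 in 2B-OlapR. C4-2B and 2B-OlapR thus both lay above LNCaP and LN-OlapR, where each background is a parent and its derivative and not replicates of 1 line. How many of all genes split by background in this way was not counted, here and for the genes below. The parental ratio was 1.26 (1.14 to 1.38), or 2.40-fold. Its pseudogene RPL21P16 was higher than the gene, at 173, 181, 452 and 442 CPM, and had a parental ratio of 1.39. With all named pseudogenes added, the parental ratio of RPL21 was again 1.39, so the difference was as large with the pseudogenes as without them.

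RPS10, on the minus strand of chromosome 6 from 34417454 to 34426125, encodes a small subunit protein and, like RPL35A, is mutated in some families with Diamond-Blackfan anemia. It was at 142 CPM in LNCaP against 163 in LN-OlapR, and 279 in C4-2B against 259 in 2B-OlapR, so it too split by background, with a parental ratio of 0.98 (0.92 to 1.04), or 1.97-fold. Its pseudogenes were low, with RPS10P7 at 311, 251, 234 and 228 counts, and with them the ratio was 0.93. The gene overlaps the readthrough gene RPS10-NUDT3, listed with 405, 398, 401 and 321 counts.

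RPL35A followed at 0.51 (0.49 to 0.54). The lowest core genes in C4-2B were RPS3A at -0.52 (-0.57 to -0.48), RPL9 at -0.46 (-0.59 to -0.32) and RPS24 at -0.39 (-0.41 to -0.36). With its named pseudogenes added, the ratio of RPL9 was -0.20. RPS3A was at 461, 485, 321 and 348 CPM in LNCaP, LN-OlapR, C4-2B and 2B-OlapR, a split by background in the opposite direction to RPS10. RPL36A changed sign with its pseudogenes, from 0.17 to -0.24, and the plot of gene families shows how little of its family's counts the gene itself held.

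**Figure D5:**
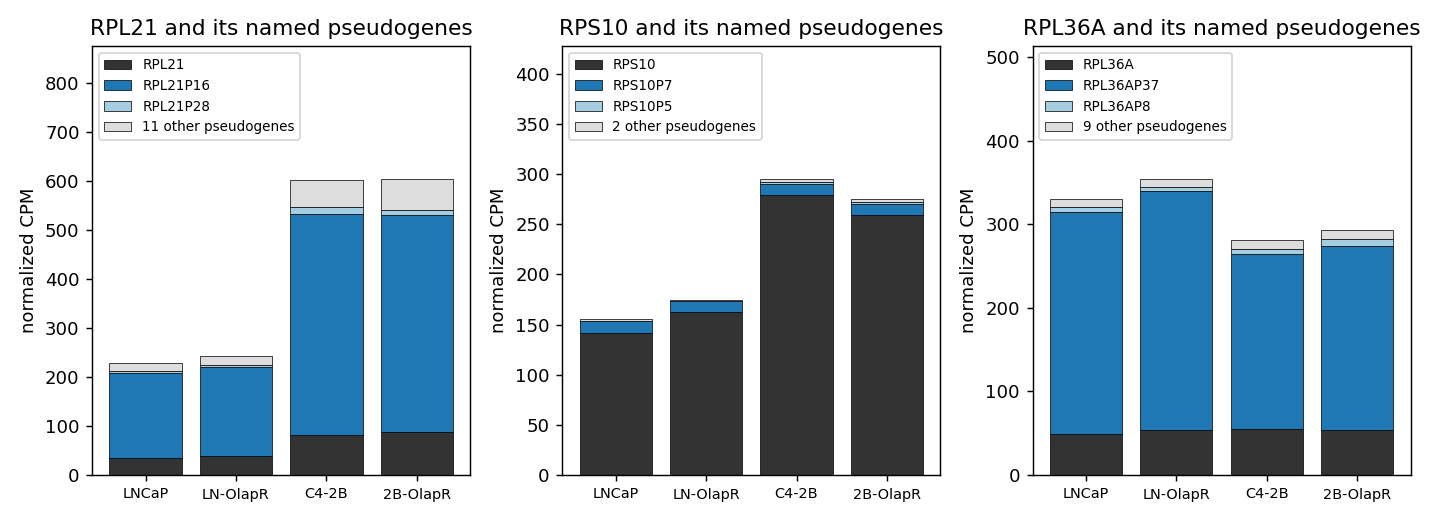
Normalized CPM of RPL21, RPS10 and RPL36A and of their named pseudogenes, stacked, in the 4 libraries (axes start at 0). RPL21 and RPL21P16 are both higher in C4-2B and 2B-OlapR, RPS10 holds nearly all counts of its family, and RPL36AP37 holds most counts of the RPL36A family.

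Some protein components of the ribosome were not part of the symbol rule. FAU encodes a fusion of a ubiquitin-like part with a small subunit protein. It was at 225, 298, 292 and 365 CPM in LNCaP, LN-OlapR, C4-2B and 2B-OlapR, so it was higher in each resistant line, with a ratio of 0.41 in the LN pair and 0.32 in the 2B pair. RACK1, the scaffold protein of the small subunit, was at 1294 and 1312 CPM in the LN pair, a difference within counting error (0.02, -0.00 to 0.04), and at 1431 and 2083 CPM in the 2B pair (0.54, 0.52 to 0.56). RPL36AL, a retrotransposed relative of RPL36A, was at 206, 218, 145 and 112 CPM, with ratios of 0.08 and -0.38.

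Genes around the ribosome did not all share the direction of the core genes. For the list here and those below, the share of all genes above 0 was 49.6% in the LN pair and 50.0% in the 2B pair. Of the 15 other listed genes with TOP mRNAs, most of them translation factors, 11 and 7 were above 0 in these pairs. Their median ratio was 0.25 (-0.02 to 0.46) in the LN pair and -0.04 (-0.11 to 0.11) in the 2B pair, with both intervals including 0. The elongation factor gene EEF2 was at 4135, 6193, 5282 and 6894 CPM, higher in both resistant lines (0.58 and 0.38). The translation-linked gene TPT1 had ratios of 0.73 and -0.09, and NAP1L1, a histone chaperone whose mRNA is of the TOP class, was at 716, 434, 632 and 317 CPM, lower in both (-0.72 and -0.996).

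Of the 26 ribosome assembly factors, 17 were above 0 in the LN pair and 16 in the 2B pair. Their medians of 0.11 (-0.02 to 0.20) and 0.10 (-0.04 to 0.25) had intervals that included 0. NOLC1, a nucleolar scaffold protein, was at 379, 491, 344 and 530.0 CPM (0.37 and 0.62), GNL3 had ratios of -0.40 and -0.21, SBDS 0.38 and 0.04, and NOP58 -0.00 and -0.42. Genes of RNA polymerase I, which transcribes rRNA, and its factors numbered 11. Of these, 7 were above 0 in the LN pair and 9 in the 2B pair. Their medians of 0.01 (-0.35 to 0.25) and 0.20 (-0.37 to 0.34) likewise had intervals that included 0. POLR1B, the second-largest subunit, had ratios of 0.11 and 0.67, POLR1C 0.28 and 0.01, and TAF1C -0.36 and -0.55.

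Of the 14 regulators of ribosomal protein mRNAs and genes, 8 were above 0 in the LN pair and 5 in the 2B pair. Their medians of 0.12 (-0.11 to 0.28) and -0.12 (-0.29 to 0.28) had intervals that included 0. LARP1, the repressor that binds TOP mRNAs, was at 549.6, 698, 587 and 838 CPM, higher in both resistant lines (0.34 and 0.51), whereas its relative LARP4 had ratios of 0.15 and -0.49. EIF4EBP1, a translation repressor and mTORC1 substrate, was at 165, 143, 178 and 135 CPM, lower in both (-0.21 and -0.40). MYC, which drives ribosomal protein genes, was at 242, 321, 248 and 229 CPM, with ratios of 0.41 and -0.12. Of the 78 mitochondrial ribosomal protein genes, 45 were above 0 in the LN pair and 57 in the 2B pair. Their median was 0.04 (-0.02 to 0.11) in the LN pair and 0.15 (0.08 to 0.25) in the 2B pair.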

How the data were processed

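RNA of 4 cell lines was sequenced as stranded mRNA libraries. The authors deposited 1 table of estimated counts, not scaled between libraries. The submitters' processing notes name STAR, Partek, GRCh38 and hg38, while versions, parameters, annotation and the handling of reads with several matches are not given in the sources used here. Of the values, 46.2% were not whole, so counts were rounded. Every gene summed to at least 10.0 over the libraries, and 73 symbols repeat. Columns of samples outside the series numbered 0.

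Counts were scaled by TMM factors of edgeR 4.0.16 (R 4.3.3). Python 3.11.15 with numpy 2.4.6, pandas 2.3.3 and SciPy 1.17.1 was used for the other steps. Log2 ratios used a pseudocount of 0.5 counts. Genes averaging 1 normalized CPM or more in a comparison were analysed, and a difference was called at 1.5-fold. Intervals are at the 95% level (normal for ratios, Wilson for levels and shares, binomial for medians). PCR duplicates are not marked. Intervals of ratios, levels and shares cover counting error only, and those of medians cover the spread between genes. With 1 library per line no model was fitted and no p-value computed. The limit for a gene at 0 is 3 counts, or 0.112 to 0.147 CPM. Gene positions and lengths (median over coding transcripts) are from GENCODE release 29 on GRCh38, matched for all 83 members. Start windows are from RefSeq. Both are annotation only.

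The design had assumed whole counts. The members, lists and alternatives were chosen with earlier results of these data known. Genes were named by a rule: each paralog and partner, the 5 highest and 5 lowest core ratios per resistant pair, the 3 highest and 3 lowest between parental lines, core genes called in any comparison, the 5 highest and 5 lowest levels, and the extremes of each list. A few genes that the rule would name are left out of the text. KLK3, RPL5, RPL11, pseudogenes, readthrough genes and the other genes of short lists were added after values were seen. Alternatives were scaling by total counts, DESeq2 1.42.0 size factors, upper quartile factors or TMM without the members, a pseudocount of 2, a minimum of 10 CPM or none, pseudogene counts added, and the longest transcript. Scripts were tested on simulated data.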

Additional observations from a re-analysis of the deposited data

Results flagged for a closer look

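Opposite directions were looked for among the named members and the extremes of the gene lists other than the mitochondrial ribosome. Of these, 3 genes were higher in the LN pair and lower in the 2B pair, each by more than 1.2-fold. The share of all genes that differed so was not counted, and by sign alone it was 21.2%. With 1 library per line the differences between the pairs were not tested. RPS27L had a log2 ratio of 0.30 in the LN pair and -1.39 in the 2B pair, a difference of 1.70. CDKN1A, which is not a ribosomal protein gene, had ratios of 0.90 and -2.06, a difference of 2.96. RPL39, the single core gene of this kind, had ratios of 0.37 and -0.28, a difference of 0.65.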

How the results depend on the processing

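With 1 library per cell line no replicate could be left out. A model that takes both pairs as replicates of resistance, paired by background, was not run. No core median and no called ratio changed direction under any alternative run. With scaling by total counts the core median was 0.078 in the LN pair and 0.057 in the 2B pair, and with upper quartile factors that of the 2B pair was 0.124. The core minus all-gene median was 0.17, 0.10 and 0.10 in the LN pair, the 2B pair and the parental lines under TMM, and it was nearly the same under the other scalings. With named pseudogenes added, the core share of counts was 7.08% (LNCaP), 7.30% (LN-OlapR), 7.66% (C4-2B) and 7.80% (2B-OlapR). Outside mitochondrial DNA it was 6.42%, 6.66%, 6.62% and 6.74%. Of 120 ratios of single genes, scaling by total counts moved 54 beyond their counting interval, by at most 0.084, and gave 7 the other sign, among them RPL7, RPS26, RPS29 and RPS3A of the LN pair and RPS27 and RPS3 of the 2B pair, all with ratios near 0. Adding pseudogene counts moved 16, at most by 0.407 for RPL36A between the parental lines. With the longest in place of the median transcript length, 29 of 40 levels per kilobase moved. Upper quartile factors moved 15 and gave 2 the other sign. DESeq2 size factors and a pseudocount of 2 moved 0, and DESeq2 gave 1 the other sign.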
